A study of Rattus norvegicus with 10 samples.

Results

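Trichostatin A (TSA, 100 nM, 19 h) was compared with its own control cultures in 6 of the 10 RNA sequencing libraries of the series, 3 of treated and 3 of control cultures. The members were taken from the condition that the labels give each library, and all 32883 genes of the deposited table were considered, of which 15717 had enough reads to be tested. Primary neuron cultures were prepared from the cortex of newborn Wistar rats and kept for 14 days in vitro. TSA was then added without washout, and the control cultures received no inhibitor. Each pair of a control and a treated culture was grown on 1 plate, and libraries with the same number are taken here as such a pair (plates 1 to 3). The other 4 libraries of the series belong to the experiment with another inhibitor. They entered the estimate of the spread and the filter on low counts. Their controls also entered the alternative that takes the control libraries of both experiments as 1 group. The cultures hold neurons together with glia, and no sorting was done, so that a bulk library cannot tell a change in the share of a cell type from a change in the RNA of its cells.

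TSA is a broad-spectrum inhibitor of histone deacetylases (HDACs). These enzymes remove acetyl groups from lysines in histone tails and belong to corepressor complexes that keep genes of other tissues and other developmental stages inactive in neurons and glia. When they are blocked, acetylation accumulates in chromatin, and the transcription of many genes changes in both directions. Cdkn1a, which encodes the cyclin-dependent kinase inhibitor p21, and Txnip, which encodes an inhibitor of thioredoxin, are genes known to respond to such drugs in many cell types.

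The control libraries held 27124552, 26956397 and 27649249 reads assigned to genes, and the TSA libraries held 26981930, 27606793 and 26070908. The deposited values are read counts divided by 1 size factor per library and are called normalized counts here. A count of 3 reads corresponded to 0.109 to 0.115 CPM, and this floor accounts for counting error alone. The totals of reads were nearly equal, but the size factors were 0.948, 0.971 and 0.938 in the controls and 1.07, 1.11 and 1.03 with TSA. A gene of equal normalized count thus had more reads with TSA, and the part of this in the next count was not tested. More genes had a read in the TSA libraries (19823, 19954 and 19668) than in the controls (18805, 18872 and 18680), and the groups did not overlap. The genes that held 50% of all reads numbered 909, 956 and 851 in the controls and 1041, 1075 and 1049 with TSA, again without overlap. In a principal component analysis of the log2 values, 81.0% of the variance fell on the first axis. The TSA libraries lay at 74.9, 60.2 and 74.8 on it and the controls at -71.4, -68.2 and -70.3, so that the TSA library of plate 2 stood nearest to the controls.

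Of 5 listed genes known to respond to these drugs, Cdkn1a and Txnip had a symbol and were examined first. Symbols came from a list of genes that the study called upregulated, so that the naming favoured a rise. Cdkn1a had normalized counts of 788, 1027 and 1121 in the controls and 2409, 2119 and 2054 with TSA. All treated libraries lay above all controls, with a log2 fold change of 1.18 ± 0.18 (SE, n = 3 per group; limma, Benjamini-Hochberg adjusted p = 2.6e-04). Txnip had 546, 865 and 394 in the controls and 3109, 3311 and 3774 with TSA, a log2 fold change of 2.57 ± 0.32 (adjusted p = 6.6e-05, limma). The lowest treated library lay far above the highest control, and relative to their means the control values differed more than the treated ones. Genes were called when the adjusted p was below 0.05 and the log2 fold change on the scale of log2(normalized count + 1) was at least 0.5 in size.

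TSA changed 6644 of the 15717 tested genes (42.3%). Of these, 3540 genes (22.5% of those tested) were higher with TSA and 3104 (19.7%) were lower. All TSA libraries lay beyond all control libraries in 64.6% of the tested genes, above them in 33.1% and below them in 31.5%. The median log2 fold change was 1.19 among the genes called higher, -0.90 among the genes called lower and 0.02 over all tested genes. In ratio, the large changes were mostly rises. A log2 rise of at least 3 was seen in 423 genes and a fall of that size in 66, and a rise of at least 5 in 57 genes and a fall of that size in 9. In normalized counts the falls weighed more. Genes called lower lost 4.02e+06 counts per library on average, and genes called higher gained 1.27e+06. The split into higher and lower depends on the filter and on the scaling. With a mean of at least 50 normalized counts required, 2372 genes were called higher and 2803 lower, so that 45.8% were higher. With the libraries scaled by their totals, the median of all genes moved to 0.20 and 68.3% of the called genes were higher, against 53.3% with the deposited normalization.

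**Figure D1:**
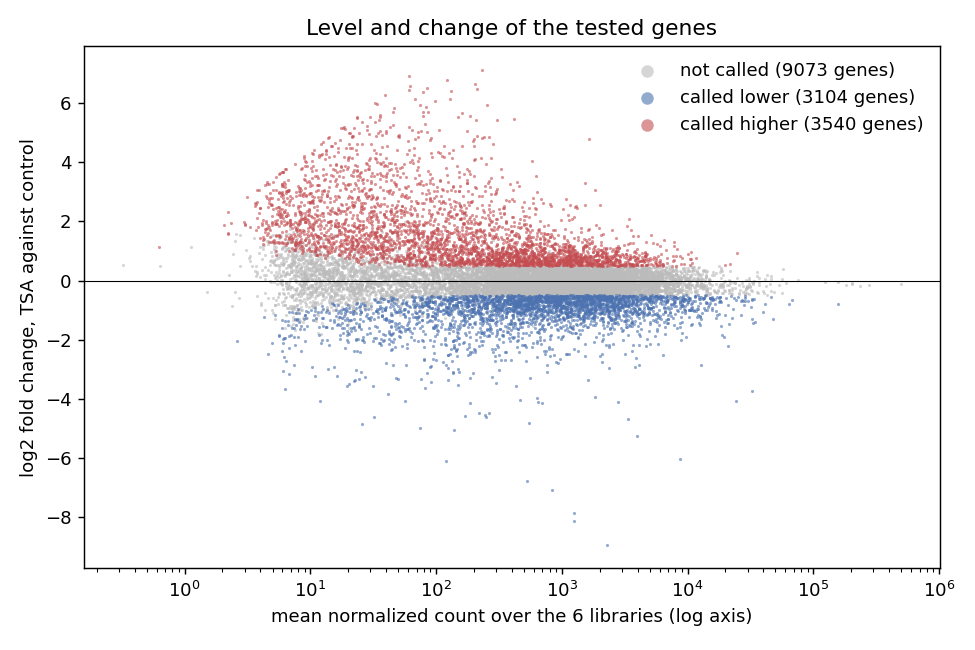
Each point is 1 of the 15717 tested genes, with its mean normalized count over the 6 libraries on a log axis and its log2 fold change (TSA against control) on the other axis. The 3540 genes called higher reach further from 0 among the genes of low and middle level, while the 3104 called lower extend to the highest levels.

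Rises and falls were spread unequally over the range of levels. Among the 1739 genes with a mean of less than 20 normalized counts, 36.9% were called higher and 7.36% lower. Among the 4754 genes between 500 and 2000 counts, 15.7% were higher and 21.0% lower. Among the 377 genes of 10000 counts or more, 10 were called higher (2.65%) and 125 lower (33.2%). The median of the mean level was 152 normalized counts for the genes called higher and 695 for those called lower. Of the genes called higher, 335 had at most 3 reads in every control library. Such genes passed the filter only through treated libraries or those of the other inhibitor experiment, which favours rises at low levels. The part of this in the trend was not tested. These levels are not divided by gene length.

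**Figure D2:**
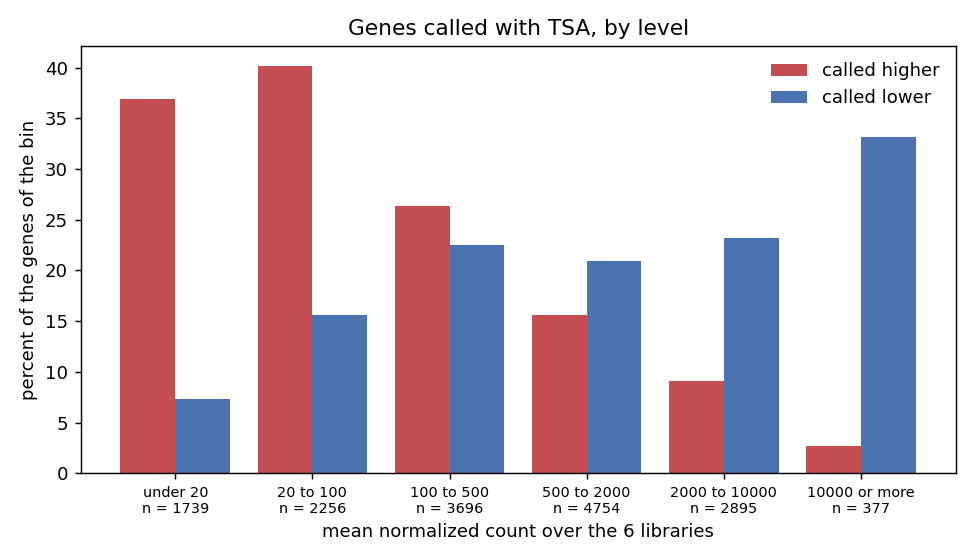
Bars give the percent of genes called higher and lower in 6 bins of the mean normalized count over the 6 libraries, with the number of genes of each bin under it. The share called higher is 36.9% in the lowest bin and 2.65% in the highest, and the share called lower is 7.36% and 33.2%. Genes almost without control reads passed the filter only through other libraries, which favours rises in the low bins.

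Transcripts that control cultures hardly held were part of the rise. Of the tested genes, 356 had at most 3 reads in every control library, and 335 of these were called higher. They could pass the filter only through treated libraries or those of the other inhibitor experiment, so that their direction was fixed and the count is a description. The count also depends on the filter, with 763 such genes called higher without one and 13 with a mean of at least 50 normalized counts. In the whole table, 282 genes had no read in any control library and at least 1 read in each TSA library, and 41 genes showed the reverse. Conversely, 28 tested genes had at most 3 reads in every TSA library, of which 19 were called lower.

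Gene names could be given to part of the genes only. The deposited table lists Ensembl identifiers, and symbols were taken from the readable part of a supplementary list of the study, which held genes that its authors had called upregulated. Of the tested genes, 1830 had a symbol, and 1787 of these were called higher, while the other 43 were not called. The groups below were drawn from these names, so that the number of members that rose was set by the choice and is no evidence for a pathway. The values of single members in each library are the observations. Genes that fell are described by their identifiers. The lists of general neuronal, glutamatergic, astrocyte and oligodendrocyte markers had no member with a symbol and were not analysed here, and of the markers of GABAergic interneurons only Pvalb had one.

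The named genes with the largest log2 rise, among those with a mean of at least 50 normalized counts, were Gpr50, Pou4f2, Nup62cl, C1ql4, Nkx6-1, Vdr, Prlhr, Hoxb13, F11r and Ddx43, with log2 fold changes from 7.12 to 6.38. Gpr50, which encodes an orphan receptor related to the melatonin receptors, had 3.16, 3.09 and 1.07 normalized counts in the controls and 588, 361 and 446 with TSA (log2 fold change 7.12 ± 0.32, adjusted p = 3.8e-07, limma). Pou4f2, a transcription factor of retinal ganglion cells, had 0 counts in all controls and 129, 84.1 and 154 with TSA. Against a floor of 3 reads per library this rise was at least 38.9-fold. Neither gene overlapped between the groups, and in both the TSA library of plate 2 was the lowest of the treated libraries. Both had at most 3 reads in every control library, so that their direction was fixed by the filter and their values are a description.

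Ddx43, an RNA helicase found mainly in germ cells and tumours, had 1.05, 0 and 2.13 counts in the controls and 185, 110 and 178 with TSA. F11r, which encodes the junctional adhesion molecule JAM-A of epithelia and endothelia, had 2.11, 1.03 and 3.20 in the controls and 313, 166 and 301 with TSA. Nup62cl, related to a protein of the nuclear pore, had 0, 1.03 and 4.27 counts and then 228, 221 and 283. The remaining members of this set followed the same order. C1ql4, a secreted C1q-like protein that organizes synapses, had a mean of 3.52 ± 2.66 in the controls and 405 ± 84.8 with TSA (SD, n = 3). The homeobox genes Nkx6-1 and Hoxb13 rose from 0.356 ± 0.616 in both cases to 123 ± 29.0 and 121 ± 57.0. Since the log2 fold change is taken after adding 1 count, its size depends on that count for genes that start this low. Against a floor of 3 reads per library, Nkx6-1 and Hoxb13 rose at least 39.0-fold and 38.3-fold.

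The windows of 250 bases before the gene start in RefSeq (build GRCr8) are shown for 4 genes whose values stand in the text. Cdkn1a is the textbook target of HDAC inhibitors, Pou4f2 and Vdr were almost without reads in the controls, and Wnt16 had a low level there. The last 3 were chosen after their values were seen. Capitals mark GGGCGG, the GC box that Sp1-type factors recognize, and CCAAT, on either strand (CCGCCC and ATTGG on the other), and matches may overlap. The windows are chr20:7150682-7150931 (plus strand) for Cdkn1a, chr19:46390708-46390957 (plus strand) for Pou4f2, chr7:130916758-130917007 (minus strand) for Vdr and chr4:51786478-51786727 (plus strand) for Wnt16.
Cdkn1a: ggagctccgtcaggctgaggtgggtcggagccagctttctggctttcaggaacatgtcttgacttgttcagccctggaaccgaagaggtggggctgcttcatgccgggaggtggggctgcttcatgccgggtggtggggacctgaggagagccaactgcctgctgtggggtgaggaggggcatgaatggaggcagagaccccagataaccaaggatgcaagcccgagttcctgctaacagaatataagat
Pou4f2: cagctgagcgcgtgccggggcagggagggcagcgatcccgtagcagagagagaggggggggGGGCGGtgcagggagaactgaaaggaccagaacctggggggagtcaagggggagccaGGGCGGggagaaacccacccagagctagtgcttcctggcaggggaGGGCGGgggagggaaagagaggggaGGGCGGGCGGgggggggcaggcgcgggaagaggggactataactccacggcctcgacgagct
Vdr: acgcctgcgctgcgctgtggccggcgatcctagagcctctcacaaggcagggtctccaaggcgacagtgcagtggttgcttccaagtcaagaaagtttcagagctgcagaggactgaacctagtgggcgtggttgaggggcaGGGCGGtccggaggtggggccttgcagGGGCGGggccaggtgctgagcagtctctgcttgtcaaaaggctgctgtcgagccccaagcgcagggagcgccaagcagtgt
Wnt16: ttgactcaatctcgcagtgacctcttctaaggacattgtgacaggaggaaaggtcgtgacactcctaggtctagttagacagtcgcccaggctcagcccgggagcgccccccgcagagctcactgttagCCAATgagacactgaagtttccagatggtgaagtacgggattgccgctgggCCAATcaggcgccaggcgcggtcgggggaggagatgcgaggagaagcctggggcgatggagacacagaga

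Pou4f2 held 5 matches to GGGCGG, Vdr 2, and Cdkn1a and Wnt16 none, while Wnt16 held 2 matches to CCAAT. Only the window at the gene start used here was searched. The absence of a match, as in Cdkn1a, does not cover other starts of the gene. Over the promoters of 1365 named genes called higher, 58.8% held GGGCGG, against 40.3% of all 19005 protein-coding promoters in the table. The share was 53.3% in the 197 of them with at most 3 reads in every control library and 59.8% in the other 1168. CCAAT was found in 34.6% of the named genes and in 35.5% of all promoters. TATAAA was found in 6.81% and 12.3%, and TTTGAA in 11.1% and 15.2%. The named genes all had reads in these cultures, whereas the whole table also holds genes without any, so that the shares describe the sequences and are not a measure of the response. A match is no proof of a binding site.

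Wnt proteins are secreted ligands that bind Frizzled receptors and, through beta-catenin and factors of the TCF and LEF type, switch on target genes. They pattern the embryonic nervous system and later act on synapses. Of the 19 Wnt genes in RefSeq, 13 carried a symbol here and 12 were tested. All 12 were called higher with TSA, beside 22.5% of all tested genes and 1787 of the 1830 with a symbol, with a median log2 fold change of 2.44, or 2.18 when genes with at most 3 reads in each control are set against the floor of 3 reads. The summed normalized counts of the ligands were 283, 407 and 435 in the controls and 1904, 1745 and 1894 with TSA. Wnt16 had 21.1, 18.5 and 23.5 counts in the controls and 607, 422 and 613 with TSA (log2 fold change 4.62 ± 0.20, adjusted p = 3.6e-07, limma). Its control values differed little, and even the lowest treated library lay far above them.

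Wnt6 was nearly silent in the controls, with 1.05, 0 and 1.07 counts, and had 86.3, 81.4 and 109 with TSA. Wnt5a, a ligand of pathways that do not use beta-catenin, was present before treatment, with 130, 280 and 298 counts, and had 610, 652 and 614 with TSA. The treated libraries were alike for both ligands, and no library crossed between the groups. Wnt1, which patterns the midbrain, rose with a log2 fold change of 2.77 ± 0.21. The smallest change among the tested ligands was that of Wnt9a, with 15.8, 13.4 and 19.2 counts in the controls and 32.8, 43.4 and 27.2 with TSA (log2 fold change 1.04 ± 0.28). Wnt3a was below the filter on low counts, with 0, 1.03 and 0 counts in the controls and 2.81, 6.33 and 10.7 with TSA.

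Receptors, transcription factors and inhibitors of this pathway were also among the named genes. The 18 members tested had a median log2 fold change of 2.20, or 1.90 with the floor. Fzd6, a Frizzled receptor, had 19.0, 12.4 and 12.8 counts in the controls and 169, 149 and 195 with TSA. Lef1, a transcription factor of the pathway, had 4.22, 8.24 and 5.33 in the controls and 74.1, 68.7 and 80.6 with TSA. Both were without overlap. The secreted inhibitor Dkk3 had 723, 672 and 715 counts and then 1907, 1532 and 1485, with a log2 fold change of 1.21 ± 0.10. Kremen1, a Dickkopf receptor, had 161, 198 and 179 and then 865, 683 and 940. Ligands and inhibitors of the pathway thus rose side by side, and the feedback inhibitors Nkd1, Notum and Apcdd1 were higher too, with log2 fold changes of 1.31, 1.84 and 1.24.

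**Figure D3:**
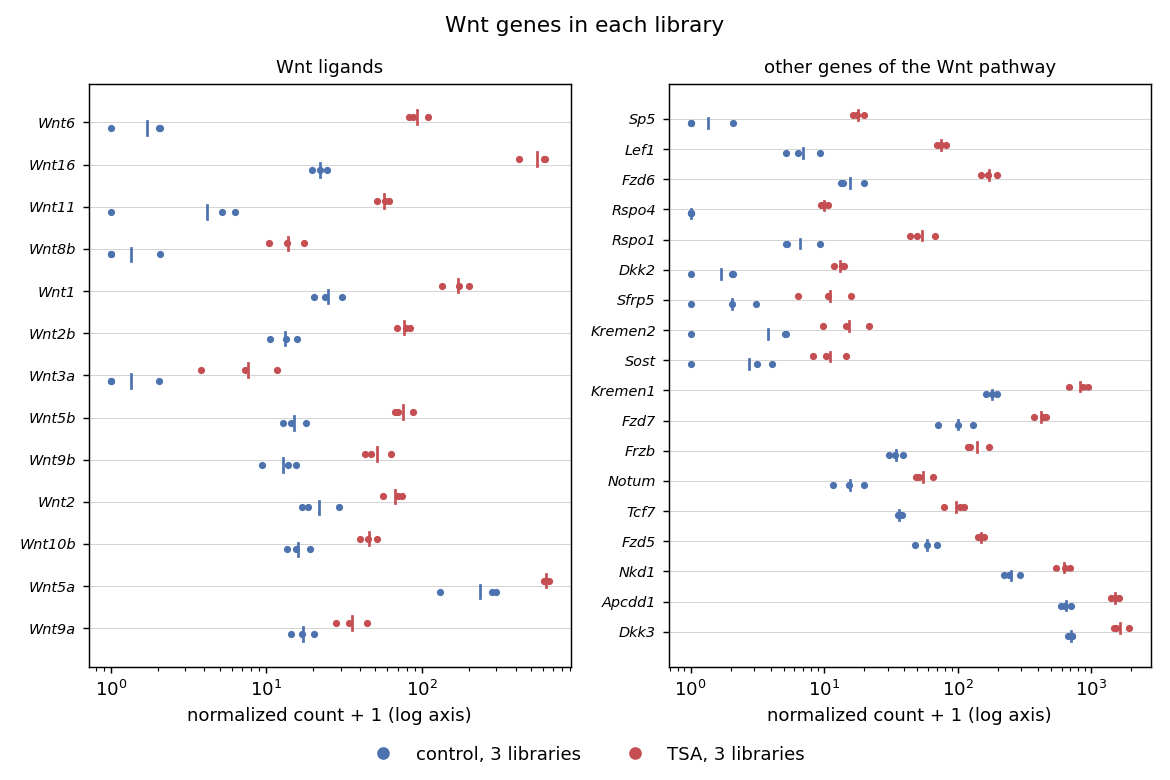
Normalized counts plus 1, on a log axis, of 13 Wnt ligands and of 18 other genes of the pathway in the 3 control and 3 TSA libraries (points), with the mean of each group as a bar, ordered by log2 fold change. In every gene shown all TSA points lie to the right of all control points, beside 33.1% of all tested genes. The names came from an upregulated list, and Wnt3a was below the filter for testing.

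Hedgehog ligands act through Smoothened and the Gli factors, and Gli1 is both a member and a target of the pathway. Gli1 had 1.05, 3.09 and 6.40 counts in the controls and 164, 113 and 200 with TSA (log2 fold change 5.30 ± 0.46, adjusted p = 6.5e-06, limma). Dhh, a ligand made by Schwann cells and in the testis, had 15.8, 24.7 and 34.1 in the controls and 271, 281 and 291 with TSA. Its treated libraries were nearly equal, and the spread lay in the controls. Shh had 16.9, 11.3 and 16 counts and then 59.1, 49.8 and 49.6, and Ihh 0, 1.03 and 0 and then 18.8, 15.4 and 26.2. Kif7, which regulates Gli proteins in the cilium, changed less, with 269, 288 and 236 counts and then 579, 539 and 613.

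Fibroblast growth factors are ligands of receptor tyrosine kinases. Of 22 genes of the family in RefSeq, 7 carried a symbol and 5 were tested. Fgf10, which drives the outgrowth of limb and lung, had 2.11, 6.18 and 8.53 counts in the controls and 102, 69.7 and 72.9 with TSA (log2 fold change 3.77 ± 0.48). Fgf3 had 0 counts in every control and 11.3, 12.7 and 13.6 with TSA, a rise of at least 3.97-fold against 3 reads per library. Fgf8, a ligand of the midbrain organizer, had 0, 0 and 2.13 counts and then 23.4, 18.1 and 19.4. In these 3 genes the groups were apart, although the levels with TSA stayed low. Jag1, a Notch ligand, rose from 122 ± 39.7 to 572 ± 91.7 normalized counts (SD, n = 3).

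Developmental transcription factors made up the largest group, with 62 tested members, of which 30 had at most 3 reads in every control library. Their median log2 fold change was 3.45, or 2.83 with the floor, which describes genes that were named from an upregulated list. Ebf3, a helix-loop-helix factor of neuronal differentiation, had 8.44, 6.18 and 6.40 counts in the controls and 632, 314 and 571 with TSA (log2 fold change 5.93 ± 0.27, adjusted p = 3.8e-07, limma). Pitx3, needed for midbrain dopamine neurons, had 3.16, 3.09 and 1.07 in the controls and 143, 138 and 186 with TSA. The control libraries agree within a few reads, and every treated library lay far higher.

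Lhx1, Sox14, Six6, Pax9, Gbx1, Foxl2 and Tlx3 had no read in any control library. Sox14, a factor of subcortical interneurons, had 55.3, 16.3 and 41.8 counts with TSA, at least 12-fold above 3 reads per library. The TSA library of plate 2 was the lowest. The same was true of 50 of the 62 factors, and of 50.3% of all genes called higher. Factors already present changed less. Foxo1, which acts in insulin and stress signalling, had 469, 587 and 588 counts in the controls and 1299, 1245 and 1334 with TSA, and Otx1, a cortical factor, had 101, 152 and 91.7 and then 285, 305 and 256.

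Nuclear receptors are transcription factors switched by lipid-soluble ligands such as steroids and vitamin D. The 15 tested members had a median log2 fold change of 1.496. Vdr, the vitamin D receptor, whose promoter is shown above, had 0, 2.06 and 1.07 counts in the controls and 187, 141 and 179 with TSA (log2 fold change 6.51 ± 0.47, adjusted p = 2.5e-06, limma). With so few control reads, the direction of Vdr was fixed by the filter, and its p-value is a description. Esrrb, an orphan receptor of pluripotent cells, had 4.22, 2.06 and 2.13 in the controls and 142, 107 and 129 with TSA. Both passed from a handful of reads to a level well above it in each treated library. Esr1 and Esr2, the estrogen receptors, had log2 fold changes of 1.36 ± 0.24 and 3.55 ± 0.41. Nr3c2, the mineralocorticoid receptor, and Ppard, a sensor of fatty acids, were well expressed in the controls (453 ± 27.1 and 819 ± 71.6 counts) and reached 978 ± 83.9 and 2175 ± 327 (SD, n = 3).

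Genes of steroid synthesis were named in 4 cases. Cyp11a1, which carries out the first step from cholesterol, had 5.27, 3.09 and 4.27 counts in the controls and 81.6, 49.8 and 58.3 with TSA (log2 fold change 3.61 ± 0.28). Cyp19a1, the aromatase, had 3.16, 4.12 and 3.20 and then 33.8, 14.5 and 17.5. The groups were apart in both, and plate 1 gave the highest treated value.

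Receptors for peptide hormones formed a group of 27 tested genes with a median log2 fold change of 1.99, or 1.64 with the floor. Prlhr, the receptor of prolactin-releasing peptide, had 4.22, 2.06 and 5.33 counts in the controls and 467, 351 and 433 with TSA (log2 fold change 6.48 ± 0.30, adjusted p = 4.1e-07, limma). Calcr, the calcitonin receptor, had 1.05, 8.24 and 5.33 in the controls and 219, 128 and 143 with TSA. Tacr3, the receptor of neurokinin B, had 53.8, 41.2 and 45.9 in the controls and 537, 431 and 366 with TSA (log2 fold change 3.21 ± 0.19). The first 2 were close to absent from control cultures, whereas Tacr3 was present. Receptors of feeding and social peptides were also in the group. Ghsr, the ghrelin receptor, had 4.22, 2.06 and 5.33 counts and then 49.7, 35.3 and 42.7, a log2 fold change of 3.21 ± 0.37. Mc4r, the melanocortin receptor of appetite control, had 29.5, 62.8 and 23.5 and then 241, 195 and 219. Oxtr, the oxytocin receptor, changed less, with 17.9, 17.5 and 16 counts and then 52.5, 44.3 and 50.5 (log2 fold change 1.46 ± 0.29).

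**Figure D4:**
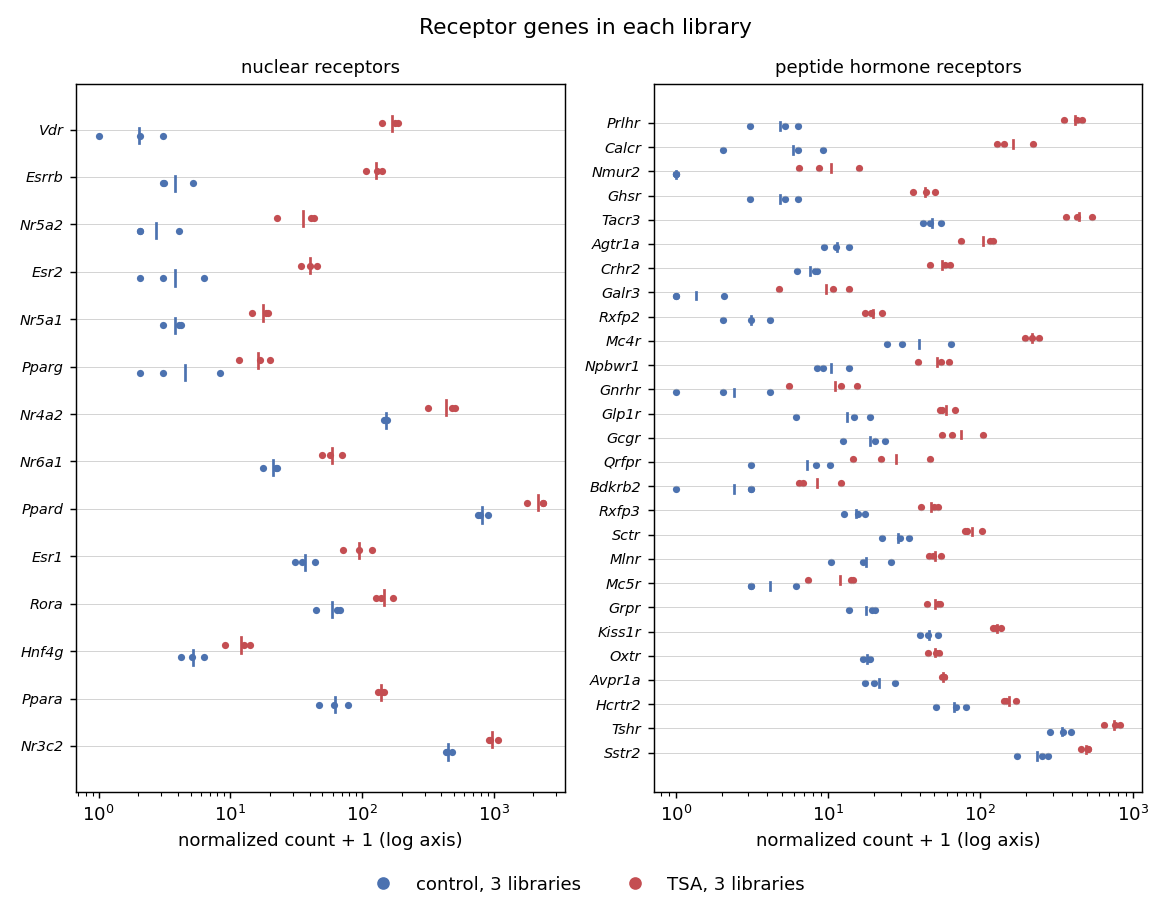
Normalized counts plus 1, on a log axis, of 14 of the 15 tested nuclear receptors (1 is not reported here) and 27 receptors of peptide hormones in the 3 control and 3 TSA libraries (points), with group means as bars, ordered by log2 fold change. All TSA points lie to the right of all control points in each gene, beside 33.1% of all tested genes, and the names came from an upregulated list. The distance is greatest for Vdr and Prlhr, with log2 fold changes of 6.51 and 6.48.

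Ion channel receptors of fast transmission included uncommon subunits. Gabre, the epsilon subunit of the GABA-A receptor, had 13.7, 15.5 and 9.60 counts in the controls and 759, 603 and 443 with TSA (log2 fold change 5.43 ± 0.37, adjusted p = 1.6e-06, limma). Gabrq, the theta subunit, had 15.8, 25.8 and 8.53 in the controls and 434, 359 and 352 with TSA. Gabrg1 was already abundant, with 1204, 1379 and 1139 counts and then 2923, 2448 and 3206. Of the nicotinic acetylcholine receptor, the subunits Chrna3, Chrna5 and Chrnb4, which are encoded in 1 gene cluster, rose with log2 fold changes of 2.00 ± 0.24, 3.28 ± 0.19 and 3.34 ± 0.37. Chrna5 had 97.0, 56.7 and 66.1 counts in the controls and 782, 591 and 744 with TSA. Grm8, a metabotropic glutamate receptor, had 85.4, 115 and 130 and then 637, 506 and 462.

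Of 34 listed genes of neuropeptides and granins, 9 had a symbol, and 8 of these were called higher, beside 22.5% of all tested genes and 1787 of the 1830 with a symbol. Gal, the precursor of galanin, had 9.49, 9.27 and 14.9 counts in the controls and 219, 128 and 134 with TSA (log2 fold change 3.71 ± 0.28). Calca, which encodes calcitonin and CGRP, had 11.6, 16.5 and 11.7 and then 173, 123 and 113. Scg2, a granin of secretory granules, was abundant, with 1841, 1449 and 1729 counts in the controls and 6090, 4703 and 5449 with TSA. No treated library reached down to a control. Nmu did not pass the test, with 23.2, 5.15 and 27.7 counts and then 62.8, 23.5 and 80.6 (adjusted p = 0.051, limma), and it passed with the replicate pairs as a block (adjusted p = 0.0057). Of the genes of serotonin handling, Tph1, the peripheral tryptophan hydroxylase, had 4.22, 1.03 and 4.27 counts and then 68.5, 38.0 and 46.6. Tph2, the form of neurons, had 4.22, 3.09 and 6.40 and then 15.0, 11.8 and 16.5 (log2 fold change 1.5 ± 0.38), and its direction turned when the control libraries of both experiments were taken as 1 group (-0.22). The receptor Htr5b had 7.38, 19.6 and 12.8 and then 313, 332 and 279.

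Motile cilia are built by ependymal and airway cells under a set of dedicated regulators and dynein arms. The 22 tested members had a median log2 fold change of 2.19 with a range from 1.15 to 3.56. Gmnc, a regulator at the head of the multiciliated cell program, had 21.1, 18.5 and 12.8 counts in the controls and 180, 112 and 168 with TSA. Dnaaf3, which assembles dynein arms, had 93.9, 72.1 and 96.0 and then 779, 642 and 756 (log2 fold change 3.05 ± 0.16, adjusted p = 6.8e-07, limma). Hydin, a protein of the central pair of the axoneme, had 68.6, 65.9 and 57.6 and then 422, 331 and 325. Regulators, assembly factors and axonemal parts were among the names, which came from an upregulated list. In each of the 22 the treated libraries lay above the controls, beside 33.1% of all tested genes.

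Some genes of the extracellular matrix varied widely among the control libraries. Of the 44 collagen genes in RefSeq, 13 had a symbol, and 12 of these were called higher, beside 22.5% of all tested genes. With 1 library left out, 76.9% to 92.3% of the 13 were called. Col8a2 had 19.0, 20.6 and 25.6 counts in the controls and 399, 416 and 345 with TSA (log2 fold change 4.10 ± 0.26). Col11a1 had 633, 1065 and 491 and then 1946, 2256 and 1627. Col1a1, a marker of fibroblasts, had 909, 47.4 and 1379 in the controls and 798, 696 and 879 with TSA, so that the groups overlapped and no change was called (adjusted p = 0.38, limma). The control library of plate 2 stood far below the others in this gene, and the log2 fold change was 1.00 ± 0.94 with it and -0.51 without it. Of 10 listed markers of mural cells and fibroblasts, 4 had a symbol, and Col1a1 is the most abundant of these. The summed counts of the 4 were 940, 62.8 and 1395 in the controls and 904, 778 and 973 with TSA. Rgs5, Kcnj8 and Abcc9, the other 3, were called higher. The part of these cells in the changes of matrix genes was not tested. Integrins, the receptors of matrix proteins, were called higher in all 11 tested cases, beside 22.5% of all tested genes and 1787 of the 1830 with a symbol. With any 1 library left out, 81.8% to 90.9% of the integrins were called. Itga2 lost its call under 7 of 18 alternatives and Itga11 under 4 of 18. Itga5 had 25.3, 59.7 and 44.8 counts in the controls and 367, 402 and 338 with TSA.

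Markers of other vessel and immune cells were few. Of 8 listed markers of endothelium 2 had a symbol, and of 17 of microglia 1. These symbols came from the upregulated list, so that markers that fell could not be seen. The endothelial receptors Flt1 and Kdr rose, Flt1 with 3.16, 1.03 and 3.20 counts in the controls and 98.5, 85.0 and 109 with TSA, and Kdr with 22.2, 12.4 and 20.3 and then 113, 82.3 and 132. Tmem119, a marker of microglia, had 2.11, 1.03 and 5.33 counts and then 5.63, 4.52 and 1.94, with overlap, and no change was called (adjusted p = 0.46, limma). Genes of innate sensing and the interferon response were also among the names. Herc6, induced by interferon, had 12.7, 7.21 and 7.47 counts in the controls and 145, 136 and 111 with TSA (log2 fold change 3.73 ± 0.24), and Usp18 had 3.16, 2.06 and 3.20 and then 25.3, 53.4 and 32.1. The sensor genes Ifih1 and Cgas changed less, with log2 fold changes of 1.49 ± 0.16 and 1.42 ± 0.33.

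Genes of stress, cell death and the cell cycle were present too. Hspa1a, an inducible heat shock protein, had 11.6, 4.12 and 13.9 counts in the controls and 188, 207 and 197 with TSA (log2 fold change 4.33 ± 0.34). Pmaip1, which encodes the death-promoting protein Noxa, had 118, 106 and 100 and then 722, 538 and 907. Atf3, a factor of the stress response, had 34.8, 26.8 and 24.5 and then 72.2, 38.9 and 87.4, and it did not pass the test (adjusted p = 0.052, limma). Besides Cdkn1a, the inhibitors Cdkn2b and Cdkn2a were higher. Cdkn2b had 74.9, 72.1 and 39.5 counts and then 233, 179 and 161. Cdkn2a had 2.11, 18.5 and 8.53 and then 59.1, 66.0 and 48.6. Of the genes of necroptosis, a lytic form of cell death, Ripk3 had 3.16, 5.15 and 9.60 counts and then 57.2, 47.9 and 43.7. Mlkl, its effector, had 36.9, 14.4 and 5.33 and then 71.3, 38.9 and 28.2, so that the groups overlapped, and its call (adjusted p = 0.040, limma) was lost under 10 of 18 alternatives. With the replicate pairs as a block, Mlkl was called (adjusted p = 0.0018, limma). The cyclin gene Ccnd2 rose in the same libraries, from 1870 ± 134 to 4331 ± 774 normalized counts (SD, n = 3; log2 fold change 1.20 ± 0.12). Of the 35 genes in the list of the cell cycle and DNA replication, only Ccnd2 had a symbol, so that the others could not be followed.

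Named genes of other kinds were fewer. Slc18a3, the vesicular transporter of acetylcholine, had 50.6, 39.1 and 77.9 counts in the controls and 300, 217 and 278 with TSA (log2 fold change 2.27 ± 0.24). Fev, the transcription factor Pet1 of serotonin neurons, had 0, 1.03 and 0 and then 34.7, 18.1 and 35.9. Aldh1a1, which makes retinoic acid, had 52.7, 47.4 and 28.8 counts and then 83.5, 203 and 47.6, and the groups overlapped. It did not pass the test (adjusted p = 0.055, limma) and passed with the pairs as a block (0.0128). Pvalb, a calcium buffer of fast interneurons, rose from 3.16, 7.21 and 1.07 counts to 11.3, 11.8 and 14.6 (log2 fold change 1.70 ± 0.47, adjusted p = 0.0094, limma), and lost its call when the control libraries of both experiments were taken as 1 group (adjusted p = 0.256, limma). Bmp2 and Bmp6, ligands of the bone morphogenetic protein family, had log2 fold changes of 1.54 ± 0.22 and 1.14 ± 0.35. The groups overlapped in Bmp6, with 253, 588 and 209 counts in the controls and 647, 1016 and 513 with TSA, and its call was lost under 4 of 19 alternatives (adjusted p up to 0.0887, limma). Of 24 listed genes of muscle, 7 had a symbol. Among them, Des, which encodes desmin, was called higher, with 8.44, 8.24 and 8.53 counts and then 46.0, 29.9 and 17.5.

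Measured in added counts rather than in ratio, the named genes at the top were Serpini1, Snd1, Nomo1, Vat1l and Atf7ip. Serpini1, which encodes neuroserpin, had 4357, 3732 and 5376 counts in the controls and 12313, 8182 and 12807 with TSA (log2 fold change 1.294 ± 0.20, adjusted p = 2.4e-04, limma). Snd1, a coactivator and nuclease, had 4926, 4708 and 4698 and then 11169, 10056 and 10925. Atf7ip, which takes part in gene silencing by histone methylation, had 3349, 3589 and 3244 and then 8165, 8351 and 7708. These genes rose from a high level, with little spread between libraries for Snd1 and Atf7ip and more for Serpini1, and the groups did not overlap. Hapln4, a link protein of perineuronal nets, combined a large ratio with a high level. It had 112, 175 and 76.8 counts in the controls and 3403, 2954 and 3233 with TSA (log2 fold change 4.79 ± 0.23, adjusted p = 4.1e-07, limma). Grn, which encodes progranulin, had 1917, 1937 and 1892 and then 6033, 5369 and 4915.

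On the scale of log2(normalized count + 1), the largest change among the tested genes was a fall. Genes without a read in the controls, such as Pou4f2, have only a lower bound for their ratio and cannot be ranked against it. The gene ENSRNOG00000025745 had 5332, 5146 and 3153 normalized counts in the controls and 10.3, 16.3 and 2.91 with TSA (log2 fold change -8.92 ± 0.45, adjusted p = 5.0e-07, limma). The gene with the largest loss in counts, ENSRNOG00000046005, had 211720, 203730 and 182090 in the controls and 115250, 123540 and 106830 with TSA (log2 fold change -0.79 ± 0.11). Neither overlapped between the groups. Of the genes without a symbol that rose, ENSRNOG00000046790 had 3.16, 10.3 and 4.27 counts and then 337, 297 and 317, and ENSRNOG00000047179 had 16916, 15983 and 17866 and then 35587, 29953 and 31287.

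The response was compared between plates. The median log2 ratio of the genes called higher was 1.18, 1.09 and 1.21 on plates 1, 2 and 3, and that of the genes called lower was -0.93, -0.76 and -0.999. Plate 2 gave the smallest change of the 3 plates in 48.7% of the genes called higher and in 66.7% of those called lower. For the developmental transcription factors the medians were 3.64, 3.05 and 3.77. The direction was shared, since 6635 of the 6644 called genes had the same sign on all plates, a count that the call itself favours. Without both libraries of plate 2, an alternative chosen after seeing the data, 3475 genes were called higher and 3249 lower.

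**Figure D5:**
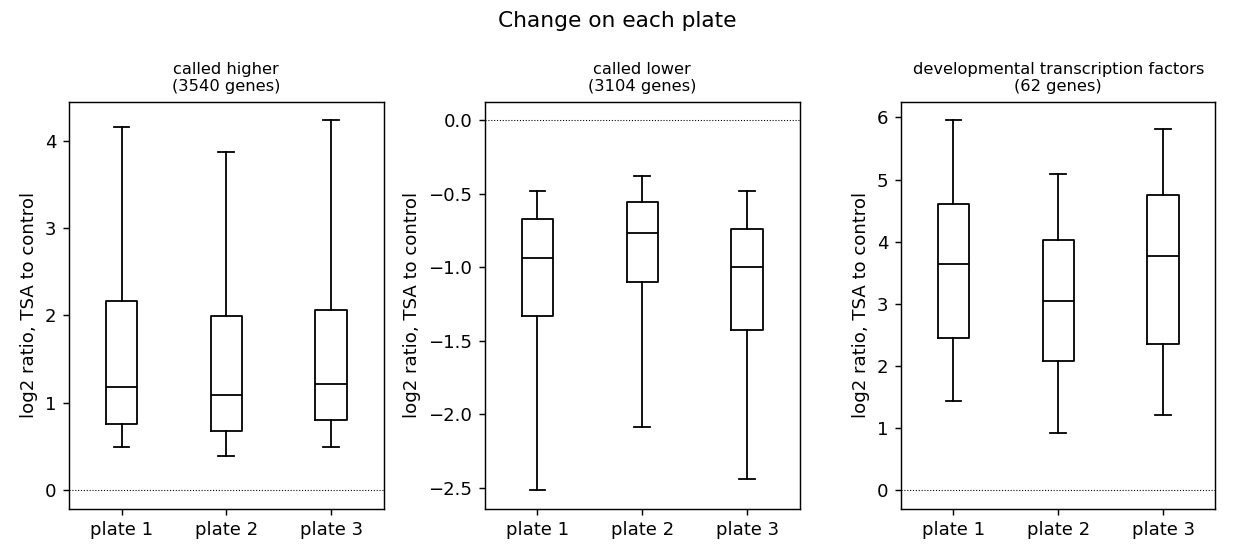
Log2 ratio of TSA to control on each plate for the 3540 genes called higher, the 3104 called lower and the 62 developmental transcription factors, on a separate scale in each panel. Lines in the boxes are medians, boxes span the quartiles and whiskers the 5th to the 95th percentile, and plate 2 lies nearest to 0 in each panel, with medians of 1.09, -0.76 and 3.05.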

How the data were processed

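Libraries were made from poly-A RNA and sequenced in pairs of reads. The authors mapped reads to Rnor_6.0 with STAR 2.7.9a, counted them per gene with featureCounts 2.0.1 and divided them by DESeq2 1.29 size factors, and the deposited values are this normalized signal. Each value is a whole multiple (tolerance 0.01) of the value of 1 read, so that whole reads were recovered for 100% of the values. Whether strand was used in counting is not given in the sources used here, so overlapping genes and close paralogs are uncertain. Values of log2(normalized count + 1) of all 10 libraries in 4 groups were fitted with limma 3.58.1 (R 4.3.3; empirical Bayes with trend, two-sided) for genes kept by filterByExpr of edgeR 4.0.16 (minimum count 10). p-values were adjusted by Benjamini-Hochberg over all tested genes. As alternatives, the recovered whole reads were tested with edgeR and with DESeq2 1.42.0, and the scripts were tested on simulated data. p-values measure the spread between these libraries.

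After group means were removed, libraries with the same replicate number correlated across genes (r = 0.284, 0.392 and 0.314, against -0.033 to -0.257 for other pairs), and the study states that pairs shared a plate. The spread between replicates exceeded counting noise (chi-square per degree of freedom 8.34 to 30.9). Symbols for 1911 identifiers came from the study's list of upregulated genes, whose columns of fold changes and p-values were not used. The RefSeq table held no Ensembl identifiers. Of 33 gene lists, 13 had no member with a symbol, and 14 groups were added once the names were known. Genes named were the 10 largest rises in log2 with a mean of at least 50 counts and the 5 largest in counts, members of the lists and groups, genes of the study's qPCR with a symbol, and 2 identifiers per direction. The rule also asked for falls, which had no symbols, and some genes that it includes are not reported here. All members and lists were chosen with earlier results of these data known.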

Additional observations from a re-analysis of the deposited data

How the results depend on the processing

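Over 21 alternatives, the number of called genes stayed between 5175 and 9327 except with a minimum log2 fold change of 1, which left 3416 genes, 2117 higher and 1299 lower. Leaving out 1 library in turn gave 6164 to 6718 called genes. The share of called genes that were higher was 53.3%. It was 68.3% after scaling by library totals and 45.8% with a mean of at least 50 normalized counts, a filter that removes genes of low level. The silent genes called higher numbered 763 without a filter and 13 with that mean. The pairs as a replicate block gave 6834 called genes and changed no call of a named gene except those of Nmu and Aldh1a1 (adjusted p = 0.0128 with the block and 0.0551 without, limma), which then passed. Of 304 named genes, 28 lost their call under at least 1 alternative, 6 gained one and 3 turned direction: Tmem119 (log2 fold change -0.0070 without plate 2), Col1a1 (1.00 with all libraries, -0.51 without the control library of plate 2, -0.42 without plate 2 and 1.91 without that of plate 3) and Tph2 (-0.22 with the 5 control libraries as 1 group). The cause was not tested. Of the necroptosis genes, 66.7% of 3 were called with edgeR (TMM or deposited size factors), DESeq2, no filter, the 6 libraries alone and without plate 2, and 66.7% to 100% with 1 library left out, since Mlkl lost its call. Of mural cell genes, 0% of the 1 left with a mean of at least 50 were called. Depth limits genes near 3 reads.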
